A study of Homo sapiens with 30 samples.

Results

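The promoters of the cytosolic ribosomal protein genes were examined for trimethylation of histone H3 at lysine 4 (H3K4me3), which marks active promoters, and for acetylation at lysine 27 (H3K27ac), found at active promoters and enhancers alike. A gene was a member when its whole symbol was RPL or RPS with a number and at most 1 trailing A or X, or was RPLP0, RPLP1, RPLP2 or RPSA. This gave 77 of the 59679 RefSeq genes on chromosomes, with 43 genes of the large subunit, 31 of the small subunit and 3 of the stalk. Their peaks, all consensus peaks within 1000 bp of either end of a member gene, were 86 of 21268 H3K4me3 peaks and 118 of 63580 H3K27ac peaks. The peak with the highest mean read count over the 6 libraries of a mark, among a gene's peaks, is called its leading peak.

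The cells were of the line OCI-Ly1, derived from a diffuse large B-cell lymphoma, in 3 groups. They received 150 nM or 500 nM JIB-04, which inhibits the Jumonji family of histone demethylases, or the vehicle DMSO. Each mark was measured by chromatin immunoprecipitation and sequencing in 2 libraries of each group, so every mean below has n = 2. The labels do not say that replicates came from separate cultures, and the p-values then measure only the spread between libraries, which may be technical. All groups are 1 cell line, and the labels give no duration of treatment. The comparisons ask which of these promoters changed in either mark with the inhibitor, and at which dose.

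A ribosome is built from ribosomal RNA and a fixed set of small basic proteins, 1 copy of nearly every protein in each particle. The stalk proteins, which recruit translation factors, are the exception and are present in several copies. Most of these genes are transcribed at high and similar rates in growing cells. Their messages typically begin with a run of pyrimidines at the cap, the 5′ terminal oligopyrimidine (TOP) motif, through which mTOR signalling controls their translation. Many also carry small nucleolar RNAs (snoRNAs), guides of ribosomal RNA modification, in their introns. In these data 29 of the 77 genes held 60 annotated snoRNAs. A start was listed with the RefSeq promoter sequences for 62 of the 77. Of these 62, 21 had the start of another transcript on the opposite strand within 1000 bp of their own.

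RefSeq promoter sequences of GRCh38.p14 matched 62 of the 77 genes. Those of 9 genes whose H3K4me3 or H3K27ac values are described below are shown, from 100 bases before the first listed start to 20 bases from it, so that the start is the first of the last 20 bases. Capitals mark pyrimidine runs near the start and, on either strand, the other letters searched, which are spelled out after the sequences.
RPL18: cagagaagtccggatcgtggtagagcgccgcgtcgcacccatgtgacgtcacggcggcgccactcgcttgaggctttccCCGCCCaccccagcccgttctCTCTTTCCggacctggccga
RPL21: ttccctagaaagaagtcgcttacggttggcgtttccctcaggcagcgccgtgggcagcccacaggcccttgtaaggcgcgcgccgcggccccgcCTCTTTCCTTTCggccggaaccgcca
RPL37A: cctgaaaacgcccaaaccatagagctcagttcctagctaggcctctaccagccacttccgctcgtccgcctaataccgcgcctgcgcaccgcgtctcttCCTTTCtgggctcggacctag
RPLP1: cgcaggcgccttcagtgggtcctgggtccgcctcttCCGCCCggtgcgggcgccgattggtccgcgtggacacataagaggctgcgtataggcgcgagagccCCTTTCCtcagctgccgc
RPS19: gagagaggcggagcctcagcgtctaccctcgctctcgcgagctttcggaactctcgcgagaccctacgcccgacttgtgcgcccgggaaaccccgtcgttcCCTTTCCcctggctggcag
RPL10: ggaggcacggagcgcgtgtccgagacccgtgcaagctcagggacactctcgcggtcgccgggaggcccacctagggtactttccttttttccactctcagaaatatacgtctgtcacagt
RPL27: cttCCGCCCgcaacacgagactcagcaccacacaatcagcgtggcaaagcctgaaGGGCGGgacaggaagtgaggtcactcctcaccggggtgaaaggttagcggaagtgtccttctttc
RPS3A: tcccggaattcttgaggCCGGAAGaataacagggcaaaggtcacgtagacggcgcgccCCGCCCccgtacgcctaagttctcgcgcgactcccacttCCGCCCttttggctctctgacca
RPS7: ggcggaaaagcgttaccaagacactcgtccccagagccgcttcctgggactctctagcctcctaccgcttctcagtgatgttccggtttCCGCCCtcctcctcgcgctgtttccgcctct

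The windows are RPL18 at chr19:48619159-48619278 on the minus strand, RPL21 at chr13:27251458-27251577 on the plus strand, RPL37A at chr2:216498744-216498863 on the plus strand, RPLP1 at chr15:69452718-69452837 on the plus strand, RPS19 at chr19:41860155-41860274 on the plus strand. The others are RPL10 at chrX:154397965-154398084 on the plus strand, RPL27 at chr17:42998319-42998438 on the plus strand, RPS3A at chr4:151099528-151099647 on the plus strand and RPS7 at chr2:3575160-3575279 on the plus strand. The first 5 have a pyrimidine run at, across or just after the start, as the capitals in the last part of each line show. That of RPL27 begins 15 bases after the start and runs past the end of the printed window, so it is not in capitals. RPL10, RPS3A and RPS7 have none of these runs within 20 bases of the first listed start. RPL10 has 3 listed starts, and the others were not searched.

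A pyrimidine run was counted when the letters CTTTTC, or else the letters CTTTCC, or else the letters CCTTTC, or else the letters CTCTTT, lay within 20 bases of the start on the coding strand. Overlapping matches were counted once, and only the first listed start of each gene was searched. It was found in 35 of 62 members (56.5%), in 3 of 69 mitochondrial ribosomal protein genes (4.35%) and in 5.68% of 27305 promoters of the same length. Of the 35 first runs, 28 began within 5 bases of the listed start. The other letters were searched on both strands of the whole 300-base promoter. CCGGAAG, letters of an ETS-family site, was in 33.9% of members, 42.0% of mitochondrial genes and 10.7% of all promoters. AAGATGGC, letters of a YY1 site, was in 9.68% of members, 29.0% of mitochondrial genes and 3.03% of all promoters. GGGCGG, the GC box, was in 54.8%, 60.9% and 44.6%, and CACGTG, the E-box, was in 4.84%, 8.70% and 7.43%. TATAAA was in 8.06% of members, 2.90% of mitochondrial genes and 11.95% of all promoters. The median GC content of the 62 promoters was 59.0%, beside 58.3% over all promoters. The pyrimidine run was thus the feature in which cytosolic and mitochondrial ribosomal protein promoters stood furthest apart, and these shares carry no test.

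The total count in peaks was 9686420 to 12327122 per H3K4me3 library and 4360660 to 5410292 per H3K27ac library. A leading peak had 505 to 3107 reads in an H3K4me3 library but 31 to 621 in an H3K27ac library, so single H3K27ac values are less precise. All values below are read counts divided by the reads in tested peaks and scaled to CPM (counts per 1e6) after TMM scaling, which sets the bulk of peaks equal between libraries, and a change shared by all peaks is not measured. As a check of the line, 8 of 8 B-cell marker genes had an H3K4me3 peak, at 55.1 to 481 CPM in DMSO. A peak was also present at 3 of 5 T-cell genes, up to 33.0 CPM, at 1 of 5 myeloid genes at 10.7 CPM, and at 3 of 4 epithelial genes, where EPCAM had 70.4 CPM. CD3E, CD2, CSF1R, LYZ, MPO, ITGAM and CDH1 had no peak. The 2 H3K4me3 libraries of 150 nM differed by no more than counting noise (chi-square per degree of freedom 0.941), as did DMSO replicate 1 against 150 nM replicate 1 (0.964). They were therefore kept as 2 samples, and counted as 1 in an added alternative. In H3K27ac, DMSO replicate 2 and 150 nM replicate 2 stood apart in reads on 5 peaks of unplaced contigs, with 71.5 and 45.9 reads there per 1e6 in peaks beside 322 to 446 in the other 4. No 500 nM library lay on the low side.

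All 77 genes had at least 1 peak of each mark. For H3K4me3, 68 genes had 1 peak and 9 had 2. For H3K27ac, 46 genes had 1 peak, 23 had 2, 6 had 3 and 2 had 4. No peak belonged to 2 members. The leading H3K4me3 peaks were 1714 to 4650 bp long with a median of 2846 bp, beside 2007 bp for all peaks near a gene end. The leading H3K27ac peaks were 995 to 4401 bp long with a median of 1888 bp, beside 1044 bp. The longest H3K4me3 peaks were at RPL28 (4650 bp), RPS18 (3968 bp) and RPS29 (3811 bp), and the shortest at RPL38 (1714 bp), RPS27 (1733 bp) and RPS10 (1791 bp). The longest H3K27ac peaks were at RPL23A (4401 bp), RPL4 (3390 bp) and RPL13A (3364 bp), and the shortest at RPL38 (995 bp), RPL29 (1035 bp) and RPS4X (1048 bp).

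The peaks lay mostly downstream of the start. Among 61 leading H3K4me3 peaks near a listed start, the median reach was 938 bp before the start and 1802 bp after it, and 56 reached further into the gene than away from it. Among 60 leading H3K27ac peaks near a listed start, the medians were 688.5 and 1173.5 bp, and 50 reached further into the gene. A few leading peaks lay at a neighbour's start. The H3K4me3 peak assigned to RPL6 lay over the start of PTPN11. It also covered the upstream end of the annotated RPL6 gene, away from the listed starts of RPL6. The H3K27ac peak of RPL17 lay at C18orf32, and that of RPL23A lay at NEK8 and TLCD1.

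In DMSO the leading H3K4me3 peaks held 21.98 to 74.3 CPM per kb, a scale that divides the level by peak length, with a median of 43.4. Their median percentile among peaks near a gene end was 83.0, with a range of 38.5 to 99.9, and 56 of 77 genes were at or above the 75th percentile. The leading H3K27ac peaks held 7.90 to 31.8 CPM per kb with a median of 18.4 and a median percentile of 75.8, and 40 of 77 genes were at or above the 75th. A leading peak is the one of its gene with the most reads, and the peaks near a gene end were not so chosen, which can raise these percentiles and the lengths above. Among the 68 and 46 genes with a single peak of H3K4me3 and H3K27ac, where nothing was chosen, the median percentiles were 83.1 and 75.7.

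The highest H3K4me3 levels were at 3 genes of the large subunit. RPL8, which lies close to the catalytic centre, had 74.3 ± 2.9 (SD, n = 2) CPM per kb in DMSO. RPL7 had 72.4 ± 3.2 and RPL13 had 70.4 ± 0.89 CPM per kb. The ranges of these 3 overlapped or nearly met within 1 SD, so their order is not resolved. Among the 3 highest H3K27ac levels were RPL7 with 31.8 ± 2.2 and RPL9 with 27.7 ± 2.0 CPM per kb. RPL7 was among the highest 3 in both marks. The H3K4me3 peak of RPL7 also covered an end of RDH10. A start of LIAS lay within 1000 bp of the H3K27ac peak of RPL9.

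The lowest H3K4me3 levels were at RPL36A with 21.98 ± 2.3, RPS4X with 22.1 ± 0.069 and RPL39 with 28.6 ± 1.5 CPM per kb. These 3 genes and RPL10, at 29.9 ± 1.6 CPM per kb, are the 4 members on chromosome X. The 73 autosomal members ranged from 29.3 to 74.3 CPM per kb with a median of 44.0, so the 4 X-linked genes, with a median of 25.3, lay at or below their lower edge. The same was seen over all peaks near a gene end, with a median of 18.2 CPM per kb on chromosome X and 29.4 on autosomes. In H3K27ac the lowest levels were at RPS4X with 7.90 ± 1.6, RPS24 with 9.78 ± 0.82 and RPL24 with 10.2 ± 1.1 CPM per kb. The 4 X-linked members had 7.90 to 14.5 CPM per kb of H3K27ac with a median of 11.8, beside 18.6 over the autosomal members and 8.93 and 13.8 over all X-linked and autosomal gene-end peaks. The number of copies of each gene in this line was not analysed here.

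Across the 77 genes, the DMSO levels of both marks had a Spearman rho of 0.55 for CPM per kb. The points share libraries, scaling and peak calling, and genes are not independent replicates.

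**Figure D1:**
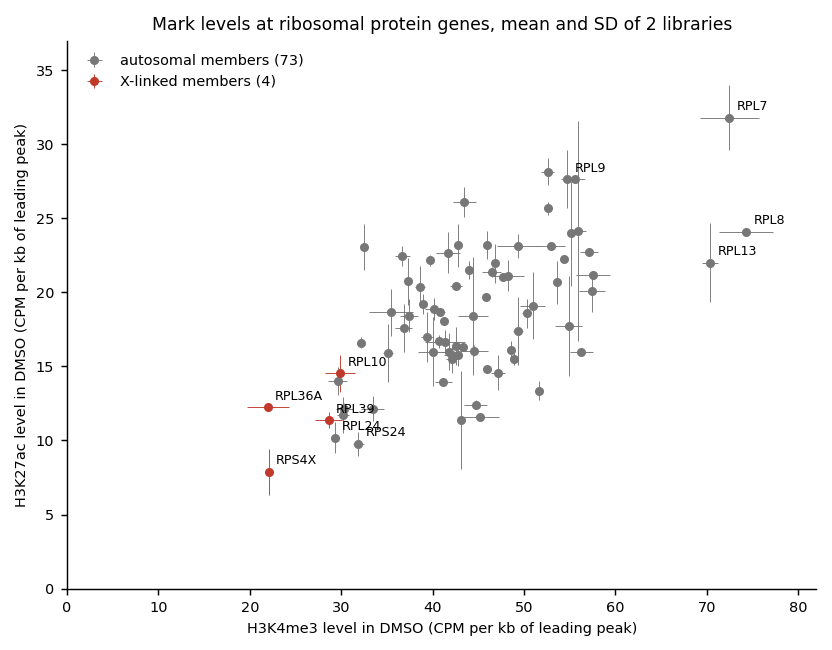
Level of H3K27ac against H3K4me3 in DMSO for the leading peaks of the 77 genes, in CPM per kb, with the mean and SD of 2 libraries as point and bars. The 4 X-linked genes (red) sit between 21.98 and 29.9 CPM per kb of H3K4me3, while RPL7, RPL8 and RPL13 sit above 70.

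In H3K4me3, 500 nM JIB-04 changed few of these promoters and changed them by little. With edgeR's quasi-likelihood test and an adjusted p under 0.05, 12 of 86 peaks passed (14.0%), 3 higher and 9 lower than DMSO, while 39.4% of all 20402 tested peaks and 39.0% of the top abundance class passed (all tested peaks fell into 5 classes of equal size by mean abundance). Peaks called higher were 20.7% and peaks called lower 18.7% of all tested peaks, and 4.80% and 34.2% of the top class. Among the 77 leading peaks, 10 passed, 3 higher and 7 lower. The median log2 fold change of the 86 peaks was -0.028, beside -0.0063 over all tested peaks and -0.059 over the top abundance class, to which 56 of the 77 leading peaks belonged. The log2 fold changes of the 77 leading peaks lay between -0.21 and 0.26. The split by direction depended on scaling. With scaling by the total count in peaks it was 8 higher and 5 lower of 13. Over all tested peaks the same scaling called 4767 higher and 2791 lower. With loess offsets on abundance it was 17 higher and 5 lower of 22, beside 3687 and 3310 over all tested peaks. With only peaks of a mean count of 50 or more it was 5 and 5 of 10, beside 2971 and 2791.

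RPL10, the X-linked protein that joins the large subunit late and helps shape the peptidyl transferase centre, had the largest rise. Its H3K4me3 peak (chrX:154397210-154399911, over the gene's start) had 83.9 and 77.7 CPM in DMSO, 80.1 and 83.8 CPM at 150 nM, and 102 and 91.5 CPM at 500 nM. Both 500 nM libraries lay above the other 4. The log2 fold change against DMSO was 0.26 (SE 0.048, adjusted p = 1.04e-05 by edgeR) and it stayed past the threshold in all 16 alternatives run for it, at 0.17 to 0.33. An uncharacterised transcript on the opposite strand starts within the same peak.

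RPL13, whose peak was among the 3 highest, had 202 and 206 CPM in DMSO, 203 and 207 CPM at 150 nM, and 211 and 225 CPM at 500 nM, a log2 fold change of 0.093 (SE 0.032, adjusted p = 0.0176 by edgeR). The 500 nM libraries lay above the DMSO libraries by a few CPM. RPL13 lost its call with the Wald test of DESeq2, with the 4 libraries alone, with the 150 nM libraries summed, at an adjusted p under 0.01, and without DMSO replicate 1 or 500 nM replicate 2.

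Of the leading peaks that fell, RPS3A and RPS7, 2 proteins of the small subunit, moved most. RPS3A (chr4:151098977-151101499) had 92.7 and 96.2 CPM in DMSO, 88.4 and 99.0 CPM at 150 nM, and 80.0 and 83.2 CPM at 500 nM. It fell by 0.21 on the log2 scale (SE 0.048, adjusted p = 0.000274 by edgeR) and stayed past the threshold in all 16 alternatives run for it. RPS7 (chr2:3574581-3577102), one of the proteins known to bind MDM2, had 107 and 104 CPM in DMSO, 103 and 102 CPM at 150 nM, and 93.1 and 92.4 CPM at 500 nM. It fell by 0.19 on the log2 scale (SE 0.042, adjusted p = 0.000305 by edgeR) and lost its call with DESeq2 alone. In both genes the 500 nM libraries lay below the other 4.

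RPL18 (chr19:48617156-48620380), a large subunit gene that shares its peak with the start of SPHK2, had 139 and 137 CPM in DMSO, 139 and 144 CPM at 150 nM, and 129 and 121 CPM at 500 nM. It fell by 0.14 on the log2 scale (SE 0.038, adjusted p = 0.00267 by edgeR), a call lost with loess offsets, with DESeq2 and without 500 nM replicate 2. RPL37A, RPL21 and RPL28 fell by 0.11, 0.093 and 0.088. The peak assigned to RPL6 fell by 0.10 (adjusted p = 0.0304 by edgeR), but it covers the start of PTPN11 as well as the upstream annotated end of RPL6. The H3K4me3 peak at a listed start of RPL6, outside the distance rule, had 78.0 ± 1.2 CPM in DMSO and 78.0 ± 1.1 CPM at 500 nM. Its log2 fold change was 0.00098 (SE 0.048, adjusted p = 0.99 by edgeR).

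The 2 largest falls were not at the starts of member genes. A second peak in the last part of RPL27A (chr11:8687267-8689957), a gene of the large subunit, had 61.2 and 53.8 CPM in DMSO, 54.0 and 54.8 CPM at 150 nM, and 47.5 and 47.0 CPM at 500 nM, and fell by 0.29 on the log2 scale (SE 0.059, adjusted p = 6.33e-05 by edgeR). A second peak at the far end of RPS18 (chr6:33276075-33278084) also covers one end of B3GALT4. It had 42.3 and 40.2 CPM in DMSO, 44.1 and 41.0 CPM at 150 nM, and 34.8 and 34.7 CPM at 500 nM, and fell by 0.25 (SE 0.067, adjusted p = 0.00217 by edgeR), a call lost with DESeq2 and without DMSO replicate 1. The start peaks of these genes did not pass the test, and that of RPS18 had 165 ± 5.1 CPM in DMSO and 158 ± 2.3 CPM at 500 nM.

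**Figure D2:**
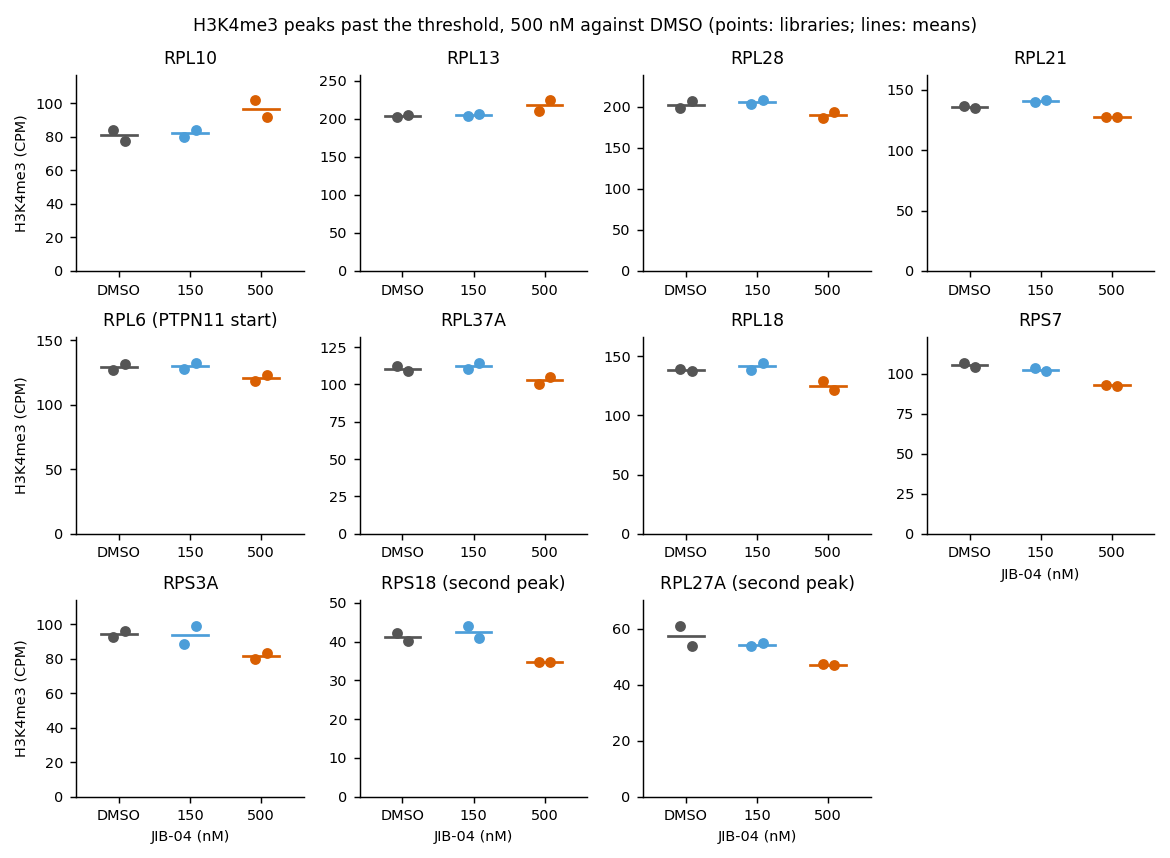
H3K4me3 level in CPM of 11 peaks past the threshold at 500 nM against DMSO, by JIB-04 dose, with each library as a point and the mean of 2 as a line; vertical axes start at 0. RPL10 and RPL13 are higher at 500 nM and the other 9 lower with TMM scaling. Total-count scaling gave 8 higher and 5 lower among 13 peaks, beside 4767 and 2791 over all tested peaks.

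The genes named for their known roles mostly had close H3K4me3 means in DMSO and at 500 nM, and none of the values in this paragraph passed the test. Among the stalk genes, RPLP0, the anchor of the stalk, had 115 ± 1.9 CPM in DMSO and 112 ± 2.2 at 500 nM. RPLP1 had 132 ± 4.9 and 140 ± 5.6 CPM, and RPLP2 had 187 ± 3.5 and 190 ± 13 CPM. RPLP1 passed under 4 alternatives, among them total-count scaling (log2 fold change 0.11) and loess offsets (0.15). RPSA, which is also known as the laminin receptor, had 79.6 ± 2.5 CPM in DMSO and 76.0 ± 3.1 at 500 nM. RPL5 and RPL11, which with 5S ribosomal RNA can bind MDM2, had 120 ± 5.5 and 97.8 ± 0.45 CPM in DMSO and 118 ± 5.2 and 102 ± 1.0 CPM at 500 nM. RPL22, mutated in some lymphoid cancers, had 115 ± 4.1 and 108 ± 2.1 CPM (adjusted p = 0.0849 by edgeR). RPL3 had 117 ± 1.2 and 117 ± 1.8 CPM. RPS6, the substrate of S6 kinase, had 125 ± 3.1 and 120 ± 1.2 CPM. RPS14, lost in the 5q- syndrome, had 132 ± 0.62 and 130 ± 0.88 CPM. RPS15, mutated in chronic lymphocytic leukaemia, had 147 ± 4.0 and 144 ± 3.9 CPM. RPS19, the gene most often mutated in Diamond-Blackfan anaemia, had 134 ± 2.9 and 138 ± 0.53 CPM. RPS27A, made as a fusion with ubiquitin, had 144 ± 0.051 and 143 ± 7.0 CPM. RPS4X had 52.5 ± 0.16 and 53.5 ± 2.7 CPM.

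Small numbers separated the subgroups. At 500 nM against DMSO, 7 of 43 leading peaks of the large subunit passed (2 higher, 5 lower), 3 of 31 of the small subunit (1 higher, 2 lower) and 0 of 3 of the stalk, beside 39.4% of all tested peaks and 39.0% of the top abundance class. Of 29 snoRNA host genes 6 passed, with 3 higher and 3 lower, and of 48 other members 4 passed, all lower. Of 35 genes with a pyrimidine run 4 passed, all lower, and of 27 with a listed start and no run 5 passed, 2 higher and 3 lower. The falls of large subunit genes and of genes with no run both count the peak assigned to RPL6. That peak lies over the start of PTPN11 and the upstream annotated end of RPL6, away from the listed starts of RPL6. No difference between subgroups was tested.

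At 150 nM no H3K4me3 peak of these genes passed edgeR's test against DMSO, with a background of 0% of all tested peaks. An unadjusted p under 0.05 was seen in 1 of 86 peaks, beside 4.66% of all tested peaks, and DESeq2 called 0. The median log2 fold change was 0.011, and the 77 leading peaks lay between -0.065 and 0.087. For 500 nM against 150 nM, 15 of 86 peaks passed (17.4%), 2 higher and 13 lower, beside 39.2% of all tested peaks (20.5% higher, 18.6% lower) and 38.6% of the top abundance class. The median was -0.034. RPL10 rose by 0.25 (SE 0.048, adjusted p = 3.10e-05 by edgeR) and RPL13 by 0.083 (adjusted p = 0.0364 by edgeR). The 5 largest falls were the second peaks of RPS18 (-0.29) and RPL27A (-0.20) and the start peaks of RPS3A (-0.20), RPL18 (-0.17) and RPS7 (-0.14). This comparison shares its 500 nM libraries with the one above. Leaving out 1 library put its median between -0.051 (without 150 nM replicate 1) and -0.020 (without 150 nM replicate 2). DESeq2 called 2 member peaks, in a fit that called 16.2% of all tested peaks. With loess offsets the split was 11 higher and 4 lower, beside 3733 and 3331 over all tested peaks.

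H3K27ac at the same promoters was higher at 500 nM in most genes, by amounts whose test depended on the libraries fitted. With edgeR's test 1 of 118 peaks passed (0.847%), beside 0.923% of all 54037 tested peaks, 2.10% of the top abundance class and 1.36% of abundant peaks near a gene end. The share was higher in some other fits. With the contig split as a term 9 of 118 passed (7.63%), beside 2.36% of all tested peaks, and with the 4 libraries alone 13 of 116 (11.2%), beside 4.12%. Without 150 nM replicate 1 or without replicate 2, 13 of 118 passed, beside 3.18% and 3.05%. All of these calls were higher at 500 nM. No member peak passed with DESeq2 or without any 1 of the DMSO or 500 nM libraries, in fits that called 0.182% to 0.387% of all tested peaks. The median log2 fold change was 0.19 over the 118 peaks and 0.19 over the 77 leading peaks, beside -0.0040 over all tested peaks, 0.023 over the top abundance class and 0.067 over abundant peaks near a gene end. Of the 77 leading peaks 75 had a value above 0, with RPS6 and RPS26 below it. Above 0 were also 26754 of all 54037 tested peaks, 5942 of 10808 in the top abundance class and 3890 of 5952 abundant peaks near a gene end. In 58 of 77 both 500 nM libraries lay above both DMSO libraries, beside 22.4% of all tested peaks, 32.3% of the top abundance class and 39.2% of abundant peaks near a gene end, and in 1, RPS6, both lay below, beside 22.2%. An unadjusted p under 0.05 was seen in 23 of the 77, beside 11.5% of all tested peaks, 18.7% of the top abundance class, to which 64 of the 77 belonged, and 16.6% of abundant peaks near a gene end. The standard error of a single leading peak was 0.10 to 0.24, which is of the size of the changes themselves.

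RPL27, a protein of the large subunit, was the 1 peak that passed. Its H3K27ac peak (chr17:42998417-42999624) had 17.9 and 19.4 CPM in DMSO, 25.5 and 23.0 CPM at 150 nM, and 27.9 and 30.3 CPM at 500 nM. The groups did not overlap, and the 150 nM libraries lay between the others. The log2 fold change against DMSO was 0.63 (SE 0.16, adjusted p = 0.0367 by edgeR). The call was lost with DESeq2, at an adjusted p under 0.01 and when any 1 of the DMSO or 500 nM libraries was left out, while the value stayed between 0.57 and 0.70. Its start window, shown above, holds GGGCGG on both strands.

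RPS15 had 28.3 and 33.5 CPM in DMSO, 31.7 and 44.3 CPM at 150 nM, and 40.7 and 46.1 CPM at 500 nM. Its log2 fold change was 0.49 (SE 0.15, adjusted p = 0.11 by edgeR), and it passed with the contig split as a term, with the 4 libraries alone and without either 150 nM library. RPL9, one of the 3 highest in DMSO, had 62.8 and 69.4 CPM in DMSO, 65.9 and 79.7 CPM at 150 nM, and 86.8 and 87.6 CPM at 500 nM (log2 fold change 0.40, SE 0.11, adjusted p = 0.0718 by edgeR). In both genes the 500 nM libraries were both above DMSO, and the 150 nM libraries stood apart from each other.

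The stalk genes had 48.0 ± 4.8 CPM of H3K27ac in DMSO and 52.1 ± 3.1 at 500 nM for RPLP0, 37.2 ± 8.1 and 46.1 ± 4.3 for RPLP1, and 58.2 ± 0.00013 and 69.0 ± 5.9 for RPLP2. RPLP1 passed the test when the contig split was a term (log2 fold change 0.46). Of the remaining genes named for their roles, RPS19 had 58.9 ± 0.99 and 66.3 ± 0.011 CPM, RPL5 had 32.3 ± 1.1 and 35.3 ± 1.2, and RPL11 had 29.9 ± 0.30 and 33.5 ± 0.61. RPS14 had 41.6 ± 6.1 and 46.4 ± 5.4 CPM, and RPS27A had 54.7 ± 0.94 and 60.6 ± 3.4. RPL10, which had the largest H3K4me3 rise, had 33.5 ± 2.8 and 36.4 ± 0.28 CPM of H3K27ac (log2 fold change 0.12, SE 0.14, adjusted p = 0.813 by edgeR). RPS4X had 8.28 ± 1.6 and 10.7 ± 0.26 CPM, RPL22 had 35.5 ± 1.7 and 37.4 ± 1.3, RPL3 had 25.4 ± 0.43 and 26.0 ± 0.0092, and RPSA had 17.2 ± 0.61 and 17.3 ± 1.8. RPS6 went the other way, with 45.2 ± 1.8 CPM in DMSO and 41.7 ± 1.4 at 500 nM. None of these passed edgeR's test.

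**Figure D3:**
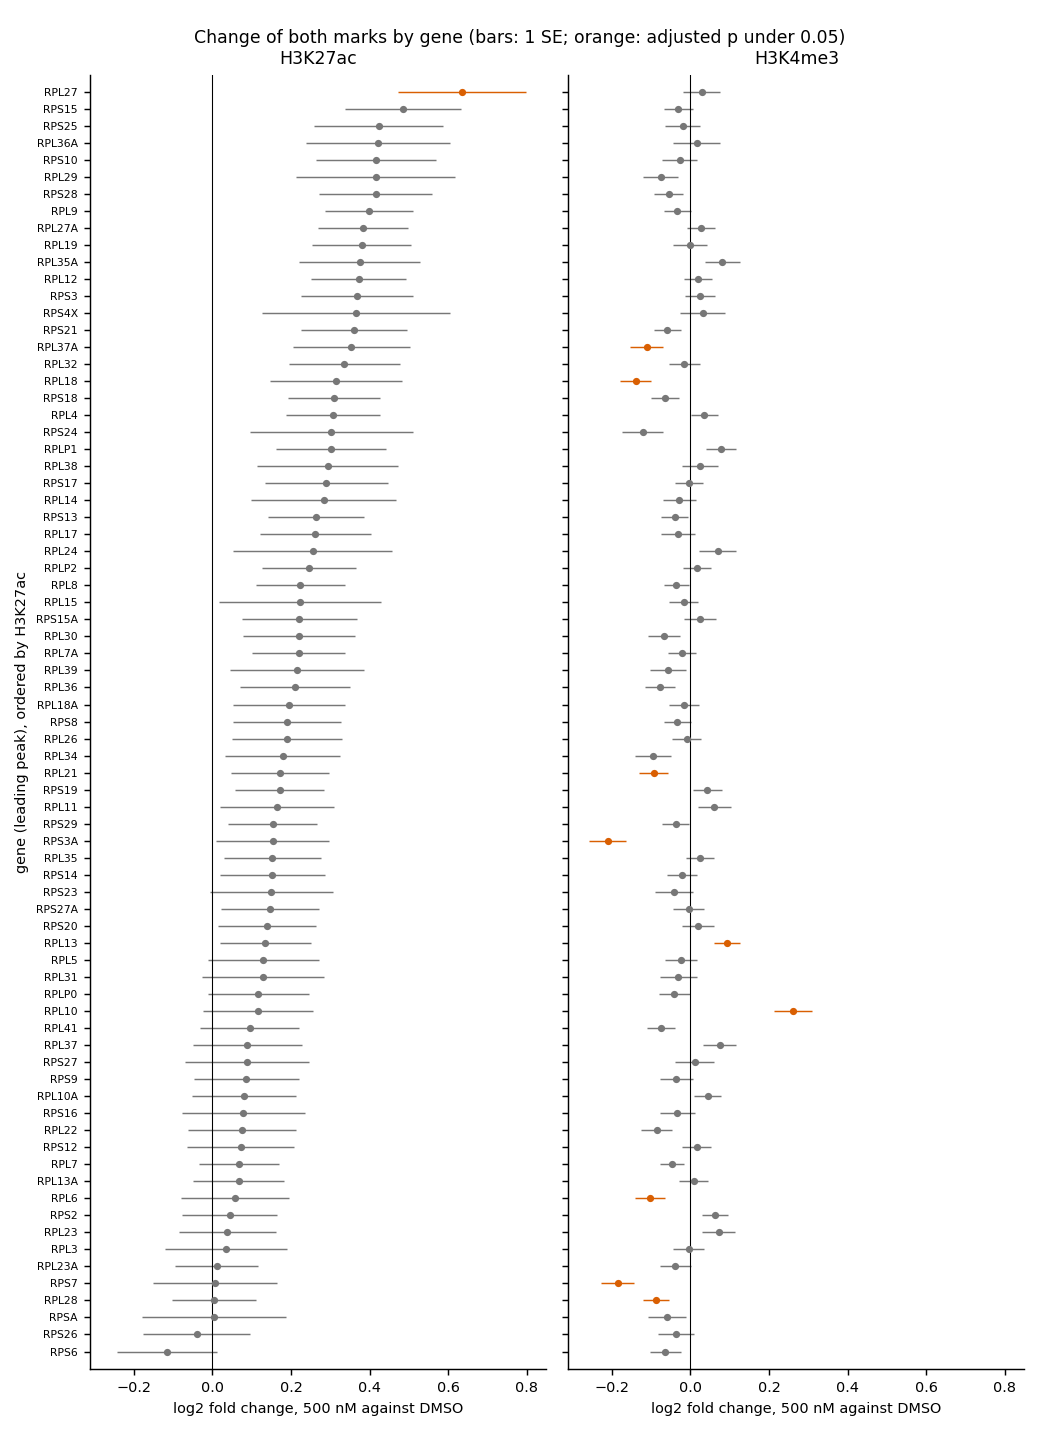
Log2 fold change at 500 nM against DMSO of the leading peaks of 75 genes, for H3K27ac (left) and H3K4me3 (right), with 1 SE as bars and adjusted p under 0.05 in orange. H3K27ac lies above 0 in every gene shown but RPS6 and RPS26, with wide bars, while H3K4me3 lies on both sides of 0 with narrow bars. Of abundant H3K27ac peaks near a gene end, 3890 of 5952 lay above 0.

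By subunit, the median H3K27ac log2 fold change at 500 nM was 0.21 over 43 large subunit genes, 0.17 over 31 small subunit genes and 0.25 over the 3 stalk genes. It was 0.31 over the 21 genes with an opposite start within 1000 bp and 0.17 over 41 genes with a listed start and none. It was 0.17 over snoRNA hosts and 0.22 over other members, and 0.22 and 0.21 over genes with and without a pyrimidine run. These medians describe the groups and were not compared by a test. The change in H3K27ac did not follow that in H3K4me3 across genes, with a Spearman rho of 0.14 over the 77 genes. Genes with a lower H3K27ac level in DMSO had somewhat larger fold changes (rho of -0.32), where both measures contain the same DMSO libraries.

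Library by library, the order of H3K27ac by dose was not resolved, since the 2 libraries of 150 nM disagreed. The median of the 77 leading peaks, as log2 CPM minus each gene's mean over 6 libraries, was -0.13 and -0.088 in the DMSO libraries, -0.071 and 0.10 in those of 150 nM, and 0.083 and 0.10 in those of 500 nM. At 150 nM, replicate 1 thus lay with DMSO and replicate 2 with the 500 nM libraries. In 150 nM replicate 1, 14 of 77 genes lay above their mean, and in replicate 2, 65 did. For H3K4me3 the medians were -0.0039, 0.0035, -0.0032, 0.033, -0.018 and -0.019 in the same order, with 150 nM replicate 2 the highest. Both DMSO libraries lay below both 500 nM libraries in H3K27ac. The libraries on the low side of the contig split, DMSO replicate 2 and 150 nM replicate 2, were each the higher of their group. No 500 nM library lay on that side, and a link between the split and this shift was not tested. With the contig split as a term the median of the 118 peaks was 0.24.

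**Figure D4:**
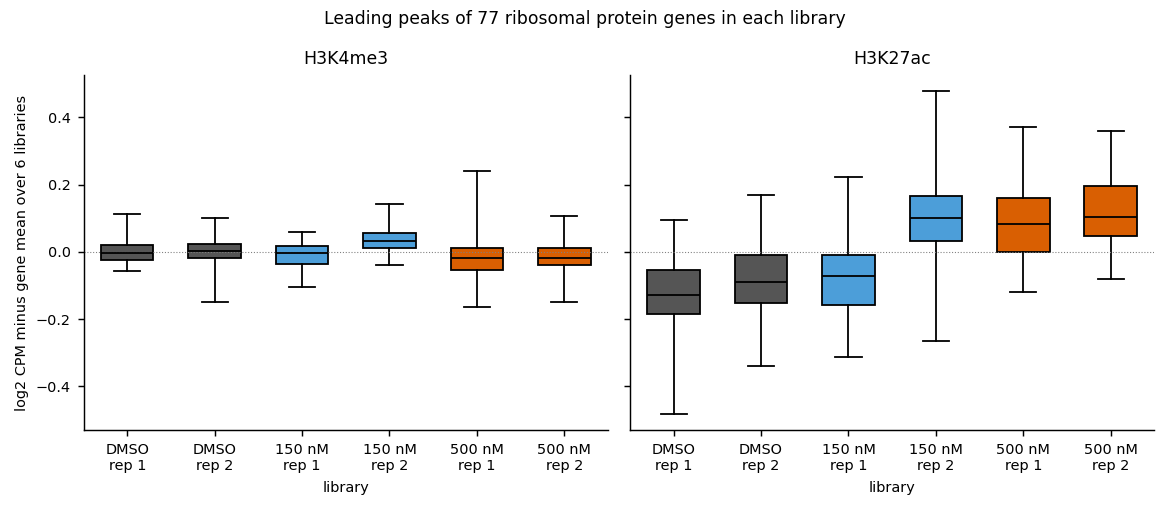
Leading peaks of the 77 genes in each library, as log2 CPM minus the gene's mean over the 6 libraries of a mark; boxes give median and quartiles, and whiskers the full range. The H3K27ac medians are below 0 in both DMSO libraries and in 150 nM replicate 1, and above 0 in 150 nM replicate 2 (0.10) and both 500 nM libraries, while those of H3K4me3 stay between -0.019 and 0.033.

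At 150 nM no H3K27ac peak of these genes passed edgeR's test against DMSO, beside 0.00185% of all tested peaks. An unadjusted p under 0.05 was seen in 6 of 118, beside 3.94% of all tested peaks, and DESeq2 called 0. The median log2 fold change was 0.12, which became 0.037 without 150 nM replicate 2 and 0.21, with 4 peaks called (3.39%, beside 0.849% of all tested peaks), without 150 nM replicate 1. For 500 nM against 150 nM, 0 of 118 passed with edgeR, beside 1.27% of all tested peaks. An unadjusted p under 0.05 was seen in 7 of 118, beside 10.2%, and DESeq2 called 0. The median of 0.037 became -0.041 without 150 nM replicate 1 and 0.16, with 4 peaks called (3.39%, beside 1.53%), without replicate 2. The direction of this comparison thus rested on which 150 nM library was used.

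The other genes of the ribosome and of translation gave similar values, so the H3K27ac shift was not seen in cytosolic ribosomal protein genes alone. At 500 nM against DMSO the median H3K27ac log2 fold change of leading peaks was 0.17 over mitochondrial ribosomal protein genes, 0.19 over translation factors and 0.22 over ribosome biogenesis genes. Of their tested H3K27ac peaks 2 of 97, 2 of 58 and 0 of 61 passed, all higher. Of all tested H3K27ac peaks 0.923% passed, and of the top abundance class 2.10%. MRPL4, a protein of the mitochondrial large subunit, rose from 29.8 ± 0.75 to 44.6 ± 0.50 CPM (log2 fold change 0.58, SE 0.14, adjusted p = 0.0162 by edgeR). A small peak at EIF3F, a subunit of initiation factor 3, rose from 2.97 ± 0.62 to 7.29 ± 0.19 CPM (1.28, SE 0.33, adjusted p = 0.0416 by edgeR). It was not the leading H3K27ac peak of EIF3F. Of 12 paralogs of ribosomal protein genes, the 10 tested H3K27ac peaks and 9 H3K4me3 peaks gave 0 calls by edgeR. An unadjusted p under 0.05 was seen in 4 and 0 of them. Over all tested peaks of H3K27ac and H3K4me3, 0.923% and 39.4% were called, and 11.5% and 47.1% had such a p.

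In H3K4me3, 16 of 81 peaks of mitochondrial ribosomal protein genes passed at 500 nM (1 higher, 15 lower), with a median of -0.054. So did 9 of 41 of translation factors (4 higher, 5 lower) and 8 of 49 of ribosome biogenesis genes (1 higher, 7 lower). Of all tested peaks 39.4% passed (20.7% higher, 18.7% lower), and of the top abundance class 39.0% (4.80% higher, 34.2% lower). MRPL39 fell from 70.7 ± 1.1 to 61.5 ± 0.73 CPM (log2 fold change -0.20, adjusted p = 0.0010 by edgeR) and MRPS2 rose from 90.2 ± 1.7 to 97.3 ± 0.63 CPM (0.11, adjusted p = 0.0391 by edgeR). EEF1A2, an elongation factor form used mainly in nerve and muscle, rose from 8.23 ± 1.7 to 12.9 ± 0.42 CPM (0.66, adjusted p = 0.000207 by edgeR). A peak at EIF6, which keeps free large subunits from joining small ones, fell from 60.5 ± 0.64 to 46.3 ± 2.2 CPM (-0.38, adjusted p = 1.24e-07 by edgeR). It was not the leading H3K4me3 peak of EIF6. The leading peak of FBL, the methyltransferase of snoRNA-guided complexes, fell (-0.17, adjusted p = 0.00125 by edgeR). Another peak of FBL, not its leading one, rose (0.33, adjusted p = 0.000163 by edgeR).

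**Figure D5:**
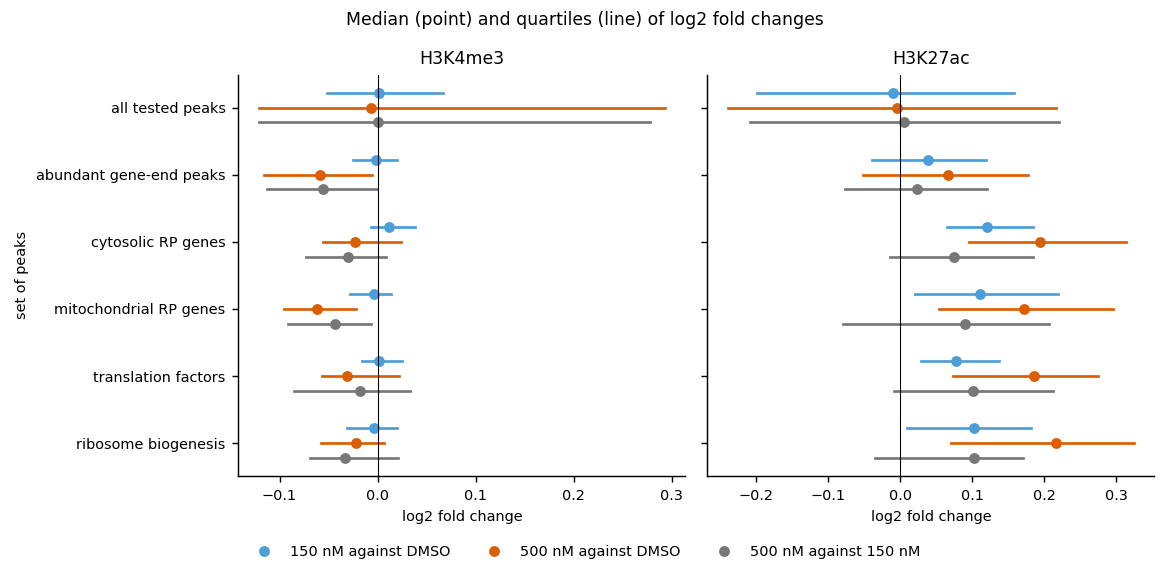
Median (point) and quartiles (line) of log2 fold changes for all tested peaks, abundant peaks near a gene end, and the leading peaks of 4 gene groups, for H3K4me3 (left) and H3K27ac (right) in 3 comparisons. For H3K27ac at 500 nM against DMSO the 4 gene groups have medians of 0.17 to 0.22, beside -0.0040 over all tested peaks; the comparisons share libraries.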

How the data were processed

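ChIP-seq libraries of H3K4me3 and H3K27ac (6 each of the series' 30) were used; the 6 libraries each of input, H3K9me2 and H3K9me3 were not analysed here. The deposited values are counts of reads per consensus peak, not normalized, made by the authors with featureCounts 2.0.1 without strand, requiring a fraction of 0.2 of the read in the peak, per the file headers. The headers carry an option for read pairs although the labels' protocols describe single reads; whether pairs were counted is unclear. The submitters' processing notes name Trim Galore 0.6.7, BWA 0.7.17-r1188, Picard 2.27.4, MACS2 2.2.7.1, deepTools 3.5.1, edgeR 3.42.4 and the build GRCh38; how the consensus was built is not given in the sources used here. Deposited starts count from 0 and have 1 added.

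Each mark's 6 libraries entered 1 edgeR 4.0.16 fit (R 4.3.3; filterByExpr by group, TMM, glmQLFit, glmQLFTest), with Benjamini-Hochberg adjustment over all tested peaks at 0.05. Standard errors were derived from the F statistic, and n is 2 per group. The edgeR step was tested on simulated data. RefSeq gene ends of GRCh38.p14 assigned peaks; the table has no strand, which was taken from the promoter sequences where listed. The reads carry no molecular identifiers and so are not independent molecules.

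The members, gene lists and tests were chosen with earlier results of these data known. Genes were named where a member peak passed, up to 10 peaks in a comparison and otherwise the 5 largest rises and falls; for the 3 highest and lowest levels and the 3 longest and shortest peaks of each mark; for a fixed list of 15 known genes; and for the largest rise and fall in other lists. RPL21, RPL28, RPL37A, RPL6, RPS26 and the genes of neighbouring peaks were named after their values were seen. Alternatives were other scalings (median of ratios, total count, loess), filters, thresholds, DESeq2 1.42.0, a replicate block, the contig split, other peak definitions and each library left out; summing the 150 nM H3K4me3 libraries was added after seeing the data. Figures used matplotlib 3.10.9. The values of 2 member genes that the naming rule covers are not reported here, and these genes enter the counts and medians.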

Additional observations from a re-analysis of the deposited data

How the results depend on the processing

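For H3K4me3 at 500 nM against DMSO the 12 peaks called became 22 with loess offsets and 3 with DESeq2, in fits that called 34.3% and 16.1% of all tested peaks, 6 at an adjusted p under 0.01 and 0 when a log2 change of 1 or more was also required. In this section the shares of all tested peaks at these 2 stricter thresholds are not given. The median of -0.028 became 0.0064 with total-count scaling, 0.042 with loess offsets and -0.0055 with peaks of mean count 50 or more, and -0.035 to -0.016 without 1 library. For 500 nM against 150 nM the 15 calls became 2 with DESeq2 (16.2% of all tested peaks), 9 at an adjusted p under 0.01 and 0 with the log2 limit, and 6 to 17 without 1 library. Its median became -0.0012, 0.032 and -0.014 under the same 3 settings and -0.051 to -0.020 without 1 library. The 150 nM median lay between -0.013 and 0.031 without 1 library, with 0 calls throughout. For H3K27ac at 500 nM against DMSO the 1 call became 9 with the contig split, 13 with the 4 libraries alone and 0 with DESeq2 (2.36%, 4.12% and 0.182% of all tested peaks), at an adjusted p under 0.01 or with the log2 limit, and 0 to 13 without 1 library: 0 without any DMSO or 500 nM library and 13 without either 150 nM library. Its median stayed above 0 in every setting run, at 0.16 to 0.21 without 1 library. For 150 nM against DMSO, leaving out 1 library gave 0 to 4 calls and medians of 0.037 to 0.21. For 500 nM against 150 nM it gave 0 to 4 calls and -0.041 to 0.16, and the contig split gave 1 call and 0.13. With the replicate number as a block, 12, 0 and 15 H3K4me3 peaks passed in 500 nM against DMSO, 150 nM against DMSO and 500 nM against 150 nM, and 7, 0 and 0 H3K27ac peaks. The 7 were 5.93% of 118, beside 2.13% of all tested peaks. Deviations of same-numbered libraries correlated at 0.0047 to 0.049 in H3K4me3 and 0.0026 to 0.13 in H3K27ac, of which only DMSO with 150 nM in H3K27ac was above 0.1. Replicate 2 of both those groups lay on the low side of the contig split. No label says that a number marks a shared batch, and the numbers were not taken as pairs. For single named peaks, 640 values kept their side of the threshold, 37 lost a call and 14 gained one. A call reversed its direction in 0. A change of sign between values that both missed the threshold was not counted as a reversal. The causes were not tested. H3K27ac depth limits single peaks, with 31 to 621 reads in a leading peak.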
